A study of Mus musculus with 8 samples.

Results

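Trp53, the gene of the transcription factor p53, and 9 genes that p53 is known to induce (Cdkn1a, Ccng1, Mdm2, Bax, Bbc3, Eda2r, Phlda3, Sesn2 and Zmat3) were followed in RNA from whole mouse embryos. They were found by matching Ensembl gene identifiers of the mRNA table to these symbols, and all 10 were present among its 29639 rows, each with 1 row. The study placed 3 polyadenylation cassettes, which end a transcript early, in the promoter of Gtl2 (also called Meg3) in the imprinted Dlk1-Dio3 domain. Wild-type embryos (WT) carried no insertion, paternal knock-in embryos (PKI) inherited it from the father, maternal knock-in embryos (MKI) from the mother, and homozygous embryos (HOMO) from both. All were taken at embryonic day 12.5 according to the design text, whereas the sample titles give E12.5 for WT, E12.6 for PKI, E12.7 for MKI and E12.8 for HOMO. Strain, sex and any allele shared by all groups were not given in the sources used here.

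p53 is held at a low level by the ubiquitin ligase that Mdm2 encodes, and is released when DNA damage, disturbed ribosome assembly or other stress blocks that ligase. It then switches on genes that stop the cell cycle, kill the cell or lower its growth, and Mdm2 itself, which closes a feedback loop. Because this control acts mainly on the protein, the level of Trp53 mRNA is no measure of p53 activity. In the embryo, loss of Mdm2 is lethal unless Trp53 is removed as well. The RNA of MEG3, the human counterpart of Gtl2, has been reported to raise p53 activity in cultured human cells, which makes these genes of interest where the insertion is inherited from the mother.

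The labels describe 8 samples, 2 per genotype, but each deposited table holds 1 column per genotype, so there is no spread within a genotype and no test, and whether neighbouring levels differ beyond error cannot be said. Levels are FPKM, fragments scaled to transcript length and library total, of unknown depth. Differences are on the log2(FPKM + 0.5) scale, where 1 unit is 2-fold, and understate folds of low genes. Genes at 1 FPKM or more in at least 2 columns were compared, 13279 in all. The MKI column stood apart, with Pearson's r of 0.864 to 0.882 to the other columns across these genes, against 0.961 to 0.975 among the other 3. The 4 Y-linked genes examined were listed at 0 in WT and stood at 7.12 to 29.7 FPKM in the other columns. WT thus showed no male RNA, while each knock-in column held some. In every difference from WT, genotype and embryo sex therefore cannot be told apart. Embryonic tissue markers were present in all 4 columns (hepatocyte, red cell, neuronal, cartilage and muscle genes), while 6 trophoblast genes summed to between 1.19 and 2.00 FPKM. In bulk tissue, fewer cells of a type and less RNA per cell cannot be told apart.

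p53 binds DNA as a tetramer at a 20-base element made of a pair of 10-base units. Promoter windows (250 bases before to 50 bases after a start site, RefSeq, GRCm38.p6) were found for 9 of the 10 genes (all but Zmat3), 12 windows in all. They were searched for the closest match to the p53 response element consensus without spacer, which reads the same on both strands. The windows of Cdkn1a, Ccng1 and Bbc3 are shown. Those of Cdkn1a and Ccng1 hold the closest matches, in genes that went opposite ways in MKI. Bbc3 was lower in MKI like Cdkn1a, and its match is no closer than those in Bax and Trp53. The capitals mark the 20 bases of the closest match, not all of which fit the consensus.

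Cdkn1a, chr17:29090729-29091028, plus strand: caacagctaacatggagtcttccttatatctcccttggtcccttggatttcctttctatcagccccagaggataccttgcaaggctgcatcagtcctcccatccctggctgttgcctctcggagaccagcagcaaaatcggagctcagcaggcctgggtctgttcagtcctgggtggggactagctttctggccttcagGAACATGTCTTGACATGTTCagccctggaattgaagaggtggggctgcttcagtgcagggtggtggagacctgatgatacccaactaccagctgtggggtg

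Ccng1, chr11:40755237-40755536, minus strand: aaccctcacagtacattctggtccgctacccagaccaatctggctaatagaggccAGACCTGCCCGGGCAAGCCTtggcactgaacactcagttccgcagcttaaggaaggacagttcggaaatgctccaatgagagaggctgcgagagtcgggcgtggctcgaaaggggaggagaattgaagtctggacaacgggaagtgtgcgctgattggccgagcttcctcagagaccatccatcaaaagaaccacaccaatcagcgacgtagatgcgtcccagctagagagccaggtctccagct

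Bbc3, chr7:16309333-16309632, plus strand: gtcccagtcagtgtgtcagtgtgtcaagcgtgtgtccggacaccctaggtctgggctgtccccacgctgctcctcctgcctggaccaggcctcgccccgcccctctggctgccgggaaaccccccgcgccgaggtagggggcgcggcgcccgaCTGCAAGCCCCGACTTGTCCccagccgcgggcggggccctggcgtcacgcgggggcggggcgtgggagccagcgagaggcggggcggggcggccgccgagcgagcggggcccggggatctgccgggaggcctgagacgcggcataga

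The Cdkn1a match (chr17:29090928-29090947) begins at position -51 from the start site of the upstream transcript and departs from the consensus at 1 of 20 bases. The Ccng1 match (chr11:40755462-40755481) begins at position -195 and also departs at 1. Of all 32851 promoter windows of this length in the table, 29 (0.0883%) held a match this close. The Bbc3 match (chr7:16309486-16309505) begins at position -97 and departs at 3 bases, as do the closest matches in Bax, AGCATATCCCAGGCAAGCTT (chr7:45467090-45467109), and in Trp53, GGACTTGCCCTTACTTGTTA (chr11:69580284-69580303). Matches with 3 or fewer departures occurred in 6.29% of all windows. The windows of Mdm2, Phlda3 and Sesn2 and the downstream window of Cdkn1a held none closer than 5 departures, a level reached by 76.6% of windows, and that of Eda2r none closer than 6. Further Bbc3 windows, downstream of the one shown, held none closer than 5 and 6 departures. The Bbc3 match above is thus the closest over several windows, while 6.29% is a share per window. These are letter matches, and binding was not measured in these data. Elements outside the windows, such as in introns, were not searched.

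In the MKI column the p53 gene and 5 of its targets lay below WT by more than 2-fold, with Bbc3 among them listed at 0, while the p53 ligase gene Mdm2 and Ccng1 were not lower. Of the 9 genes that passed the filter, 6 were at least 2-fold lower in MKI (66.7%), none was 2-fold higher, and their median log2 difference was -1.41. In the same comparison 19.1% of all 13279 genes were 2-fold lower, 1.22% were 2-fold higher (20.3% in all), and the median was -0.11. Of the 2-fold genes in that comparison 6.01% were higher as deposited and 30.7% after quantile normalization, which raised the median of all genes by 0.25. In PKI and in HOMO none of the 9 genes was 2-fold away from WT. Of all genes 2.15% were in PKI (0.7% higher, 1.45% lower) and 1.45% in HOMO (0.67% higher, 0.783% lower). For 9 genes an absence is close to those shares. The medians of the 9 were 0.02 and -0.02 (all genes -0.07 and -0.06). The PKI, MKI and HOMO differences share the WT column.

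**Figure D1:**
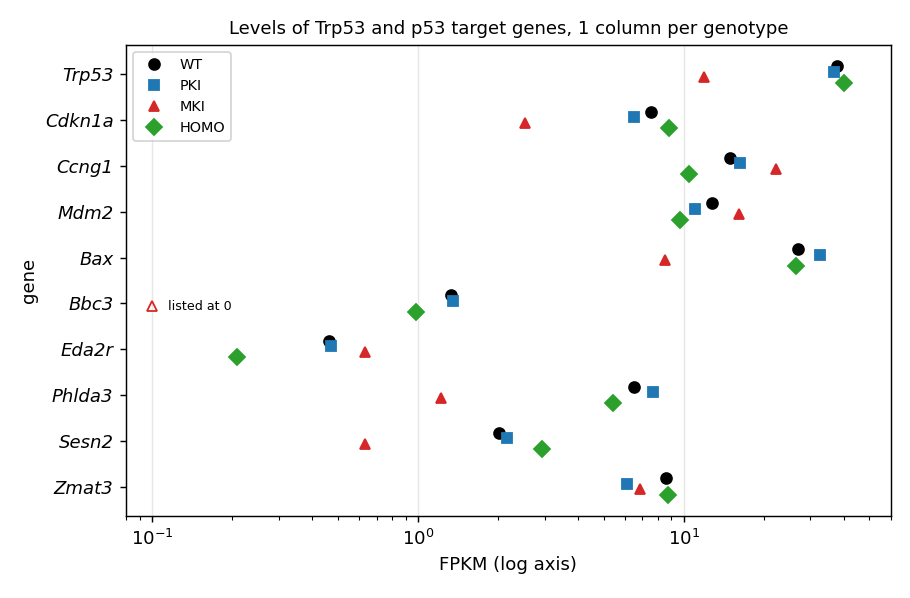
Level of each gene (FPKM, log axis) in the single WT, PKI, MKI and HOMO columns; the open triangle stands for a value listed at 0. MKI was the lowest column for Trp53, Cdkn1a, Bax, Bbc3, Phlda3 and Sesn2 and the highest for Ccng1, Mdm2 and Eda2r.

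Trp53 (ENSMUSG00000059552, chromosome 11, 69580348 to 69591873, GRCm38) encodes p53. It stood at 37.6 FPKM in WT against 36.9 in PKI, 11.9 in MKI and 40.2 in HOMO. The WT, PKI and HOMO levels lay within 1.09-fold of each other, and MKI was 3.15-fold below WT. On the log2 scale the MKI difference from WT was -1.62, and 6.37% of tested genes had a more negative one. RefSeq lists a pseudogene of this gene, Trp53-ps, on chromosome 17, and how the authors assigned reads shared between copies was not given in the sources used here.

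Among the genes that restrain the cell cycle, Cdkn1a (ENSMUSG00000023067, chromosome 17, 29090979 to 29100722) encodes p21, the inhibitor of cyclin-dependent kinases that carries out most p53-driven arrest. It stood at 7.57 FPKM in WT against 6.51 in PKI, 2.53 in MKI and 8.81 in HOMO. MKI was again the low column, 2.99-fold below WT (log2 difference -1.41), and HOMO was the highest, 1.35-fold above PKI. The ratio of Cdkn1a to Trp53 levels was 0.201 in WT against 0.176 in PKI, 0.212 in MKI and 0.219 in HOMO, so both genes stood lower in MKI by a like factor.

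Ccng1 (ENSMUSG00000020326, chromosome 11, 40748552 to 40755309) encodes cyclin G1, which recruits a phosphatase that acts on the Mdm2 protein. It stood at 14.9 FPKM in WT against 16.3 in PKI, 22.2 in MKI and 10.5 in HOMO. Its order was the reverse of that of Cdkn1a at both ends, MKI being highest and HOMO lowest. MKI was 1.48-fold above WT (log2 difference 0.55), and HOMO was 2.12-fold below MKI, the only comparison in which Ccng1 passed 2-fold. Its HOMO difference from WT, -0.49, was small in size but more negative than that of all but 4.89% of tested genes.

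Mdm2 (ENSMUSG00000020184, chromosome 10, 117688875 to 117710758), the p53 ligase gene, stood at 12.73 FPKM in WT against 11.1 in PKI, 16.1 in MKI and 9.72 in HOMO. As for Ccng1, MKI was the highest column and HOMO the lowest, with log2 differences from WT of 0.33 and -0.37. Neither passed 2-fold. The ratio of Mdm2 to Trp53 levels was 0.338 in WT, 0.300 in PKI and 0.242 in HOMO, but 1.35 in MKI, where Mdm2 RNA exceeded Trp53 RNA per length of transcript.

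Bax (ENSMUSG00000003873, chromosome 7, 45461695 to 45466903) encodes a protein that opens the outer mitochondrial membrane in apoptosis. It stood at 26.9 FPKM in WT against 32.6 in PKI, 8.52 in MKI and 26.4 in HOMO. MKI was 3.16-fold below WT and 3.82-fold below PKI, the highest column. The ratio of Bax to Bcl2, the gene of a survival protein that opposes it, was 4.23 in WT against 6.38 in PKI, 1.08 in MKI and 5.49 in HOMO. Bcl2 is 1 of several such protectors, and Bcl2l1, another, was below WT in MKI.

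Bbc3 (ENSMUSG00000002083, chromosome 7, 16308398 to 16318334) encodes PUMA, which frees Bax from its inhibitors. It stood at 1.34 FPKM in WT, 1.36 in PKI and 0.981 in HOMO, and was listed at 0 in MKI. It was counted among the genes 2-fold lower in MKI by way of the pseudocount, and no fold is given. An exact 0 in such a table can also be a failed estimate, and the depth that would bound it is unknown.

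Eda2r (ENSMUSG00000034457, chromosome X, 97333837 to 97377234), the gene of a death-domain receptor for ectodysplasin A2, did not pass the filter. Its levels were 0.465 FPKM in WT against 0.471 in PKI, 0.634 in MKI and 0.208 in HOMO. MKI was its highest column and HOMO its lowest, in the order of Ccng1 and not of Bax.

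Of the genes that lower growth or act under stress, Phlda3 (ENSMUSG00000041801, chromosome 1, 135766085 to 135769134), whose product competes with the kinase Akt for membrane lipid, differed most. It stood at 6.53 FPKM in WT against 7.66 in PKI, 1.22 in MKI and 5.43 in HOMO. The MKI level was 5.35-fold below WT, with a log2 difference of -2.03 that 2.53% of tested genes went below. The 5 genes whose differences from WT in PKI, MKI and HOMO lay nearest to those of Phlda3, by Euclidean distance over the 3 differences and among 13276 other genes, were Gsc, Nfatc4, Rangrf, Hist1h1e and Vasn, at distances of 0.132 to 0.144. None of them is on the p53 lists used here.

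Sesn2 (ENSMUSG00000028893, chromosome 4, 132492804 to 132510456) encodes sestrin 2, a leucine sensor that restrains the growth kinase complex mTORC1. It stood at 2.02 FPKM in WT against 2.17 in PKI, 0.631 in MKI and 2.94 in HOMO. MKI was 3.20-fold below WT, a log2 difference of -1.16 at the pseudocount used, and -0.89 with a pseudocount of 1 and -0.63 after quantile normalization, both short of 2-fold. HOMO was the highest column, 1.46-fold above WT, and 96.8% of tested genes had a lower difference in that comparison.

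Zmat3 (ENSMUSG00000027663, chromosome 3, 32334792 to 32365665) encodes a zinc finger protein that binds RNA. It stood at 8.60 FPKM in WT against 6.15 in PKI, 6.86 in MKI and 8.70 in HOMO. All 4 levels lay within 1.42-fold of each other, and PKI, not MKI, was the lowest.

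**Figure D2:**
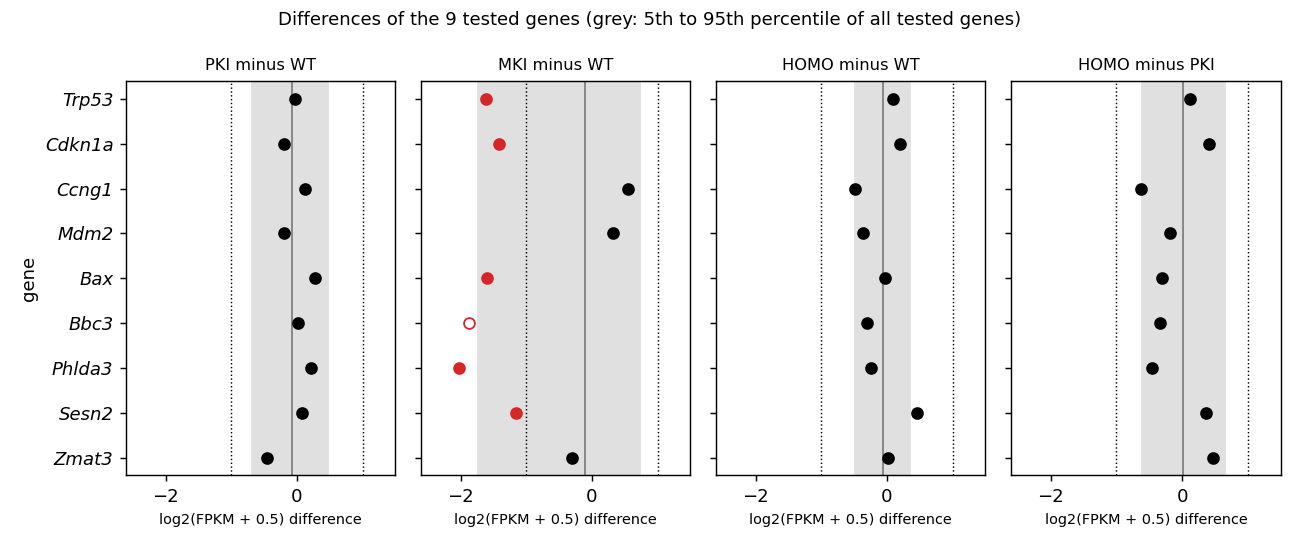
Differences on the log2(FPKM + 0.5) scale for the 9 genes that passed the filter; the grey band spans the 5th to 95th percentile of 13279 genes, the grey line is their median and dotted lines mark 2-fold. Red points passed 2-fold, which occurred only in the MKI minus WT panel, and the open point is Bbc3, listed at 0 in MKI.

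A maternally inherited insertion can be set against its absence in a second pair of columns that leaves out MKI, HOMO against PKI. There none of the 9 genes passed 2-fold, where 2.87% of all genes did (1.55% higher, 1.32% lower), and their median log2 difference was -0.18 (all genes 0.01). Trp53 differed by 0.12 in that pair against -1.62 in MKI minus WT, and Bax by -0.30 against -1.60. Phlda3 differed by -0.46 against -2.03. Ccng1 was lower in HOMO than PKI (-0.62) and higher in MKI than WT (0.55). The difference between the pairs was not tested, since each rests on 1 column a side.

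Set directly against MKI, HOMO was 2-fold higher for 6 of the 9 genes, where 19.7% of all genes were, and 2-fold lower for Ccng1, where 3.64% were (23.3% of genes in all). Phlda3 was 4.45-fold, Sesn2 4.66-fold, Cdkn1a 3.48-fold, Trp53 3.36-fold and Bax 3.10-fold higher, and the sixth was Bbc3. MKI was also 2-fold lower than PKI for the same 6 genes (16.6% of all genes, with 2.55% 2-fold higher and 19.1% in all), Phlda3 being 6.28-fold lower. In that comparison Cdkn1a (-0.90) and Sesn2 (-0.86) fell short of 2-fold after quantile normalization, which left 4 lower genes. These comparisons share the MKI column with each other.

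How far a gene stood from WT in MKI went with the length of the gene. Across 12333 tested genes with a RefSeq span (92.9%), Spearman's rho between span and the MKI minus WT difference was 0.342, a description over genes, which are not replicates. The median difference was -0.75 in the decile of shortest spans and 0.13 in that of the longest, and 39.2% and 3.57% of genes, respectively, were 2-fold lower. The 6 genes that were 2-fold lower in MKI span 3050 bases (Phlda3) to 17653 bases (Sesn2), all within the 4 shortest deciles. Mdm2 and Zmat3, which were not, span 21884 and 30874 bases. Ccng1 is the exception, with 6758 bases and a higher level in MKI.

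When the median of the gene's own span decile was subtracted, Trp53 stood at -1.17, Bbc3 at -1.43 and Phlda3 at -1.28 in MKI minus WT. Bax came to -0.99, Cdkn1a to -0.97 and Sesn2 to -0.82, just short of 2-fold, whereas Ccng1 came to 1.16 and so passed 2-fold upward. The count of 6 lower genes was then 3 lower and 1 higher. In MKI against PKI the same subtraction left 4 lower genes and Ccng1 higher (1.03), with Cdkn1a at -0.78 and Sesn2 at -0.97, and in HOMO against MKI Bax came to 0.93. The share of all genes past 2-fold after this subtraction was not computed. These counts therefore have no background to be read against. The part that gene length, or the quality of the RNA behind this column, plays in these differences was not tested further.

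**Figure D3:**
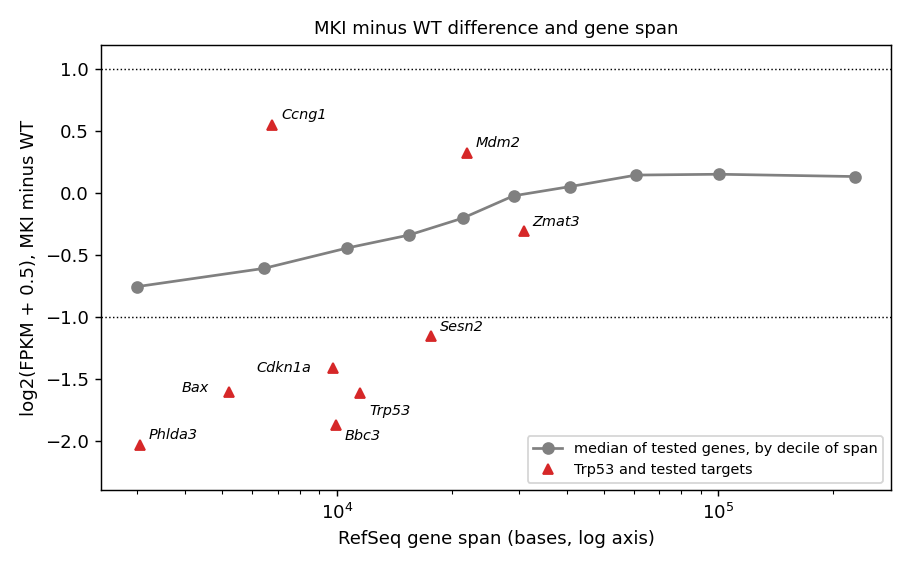
Difference MKI minus WT on the log2(FPKM + 0.5) scale against RefSeq gene span (bases, log axis); grey points are medians of tested genes in 10 deciles of span and red triangles the 9 genes named. The grey line runs from -0.75 to 0.13, and 6 triangles lie below -1 with Ccng1 and Mdm2 above 0.

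The genes that control p53 were not lower as a group in MKI. Of 17 listed regulators 16 were tested, 13 were above and 3 below WT, and none passed 2-fold (median 0.28). Of all genes 19.1% were 2-fold lower and 1.22% 2-fold higher in MKI (median -0.11). The part of gene span in the differences of this list was not tested. Usp7, a deubiquitinase that stabilizes Mdm2 and p53, stood at 39.7, 33.5, 67.4 and 43.0 FPKM from WT through PKI and MKI to HOMO. Daxx, a partner of Mdm2 in the nucleus, stood at 8.00, 7.93, 3.97 and 8.63 FPKM in the same order. Mdm4, which blocks p53 without degrading it, stood at 18.9, 15.8, 25.2 and 16.9 FPKM with MKI the highest column, as for Mdm2. Cdkn2a, whose product Arf holds Mdm2 in check, was listed at 0 in all 4 columns.

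Counts on the other target lists are read against the 19.1% of all genes 2-fold lower and the 1.22% 2-fold higher in MKI (median -0.11). Of 9 other tested arrest genes 4 were 2-fold lower and none higher (median -0.25). These were Sfn, Btg2, Gtse1 and Plk3, the last at 1.46 against 3.42 FPKM in WT and right at the threshold (log2 difference -1.001). Btg2, which slows division, stood at 14.9, 10.8, 6.55 and 13.2 FPKM from WT through PKI and MKI to HOMO. Of 10 other tested death genes 3 were 2-fold lower in MKI (median 0.03). These were Siva1 at 4.57 against 27.6 FPKM, Pidd1 at 1.57 against 4.70 and Aen, an exonuclease gene, at 2.98 against 7.01. Of 13 tested repair and metabolism genes 4 were 2-fold lower (median -0.20).

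Ddit4, an mTORC1 inhibitor gene that answers to several kinds of stress, showed the greatest difference on these lists, with 19.2 FPKM in WT against 22.5 in PKI, 1.94 in MKI and 15.7 in HOMO. Sco2, which helps to assemble cytochrome oxidase, stood at 0.183 FPKM in MKI against 2.06 in WT, and Fdxr, a ferredoxin reductase gene, at 0.778 against 3.78. Gpx1, the antioxidant glutathione peroxidase gene, stood at 113.8, 101.0, 47.5 and 158.4 FPKM from WT through PKI and MKI to HOMO. No gene of these 3 target lists was 2-fold higher in MKI (1.22% of all genes) or passed 2-fold in HOMO against WT (1.45% of all genes). On lists this short an absence is close to those shares.

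**Figure D4:**
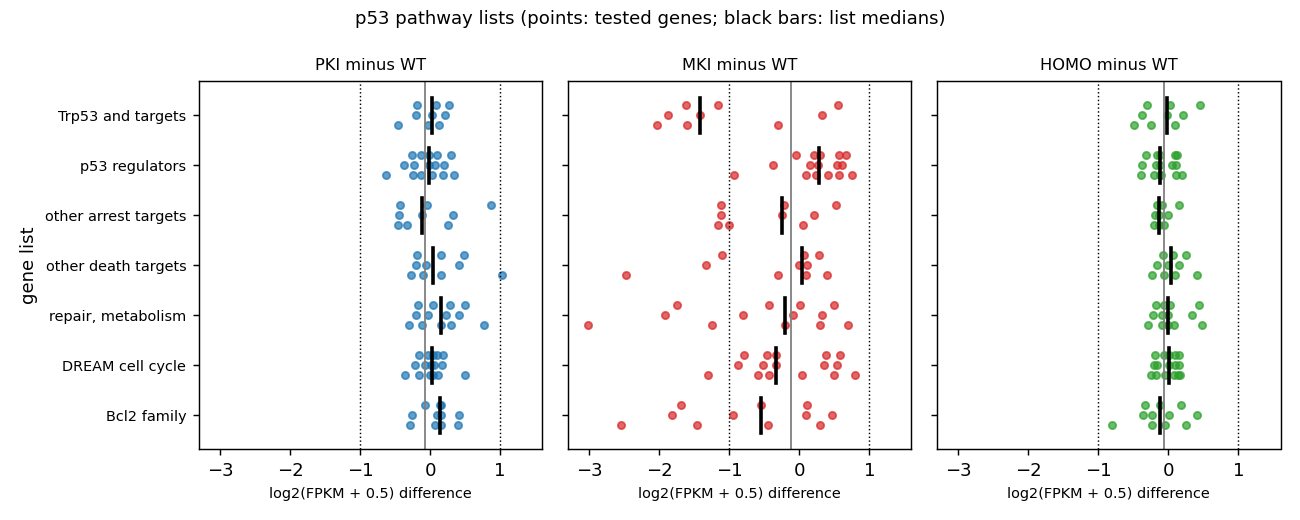
Differences from WT on the log2(FPKM + 0.5) scale for the tested genes of 7 lists (points) with list medians (black bars); the grey line is the median of all tested genes and dotted lines mark 2-fold. Points spread past -1 in the MKI panel in every list except the p53 regulators, and stay within 1 unit in the HOMO panel.

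Of the Bcl2 family, which holds both killers and protectors, 11 of 13 genes were tested and 4 were 2-fold lower in MKI (median -0.55), against 19.1% of all genes (median -0.11). These were the killers Bok (0.771 against 6.92 FPKM in WT), Bad (2.47 against 9.92), Bak1 (2.69 against 9.80) and Bmf (2.93 against 8.94). Of the other killers, Bid, Pmaip1 and Bcl2l11 differed by 0.11, 0.09 and -0.45 (log2). Of the protectors, Bcl2l1 (-0.94) and Bcl2l2 (-0.55) were below WT and Mcl1 (0.46) and Bcl2 (0.29) above, none past 2-fold. Among the cell cycle genes that p53 and p21 shut off through the DREAM repressor complex, 1 of 16 was 2-fold lower in MKI (median -0.33), E2f1 at 3.66 against 9.78 FPKM, a lower share than the 19.1% of all genes. None was 2-fold higher. Of the 16, 7 were above WT, among them Birc5 (0.79), Top2a (0.59), Bub1 (0.53) and Mki67 (0.49). The other 9 were below, among them Cdc20 (-0.78), Foxm1 (-0.59) and Mcm2 (-0.52). The summed level of the list was 665 FPKM in MKI and 590 in WT, and weighs abundant genes such as Top2a (162.2 against 108.0 FPKM) most. Plk1, a mitotic kinase gene, stood at 21.5, 23.2, 11.5 and 22.9 FPKM from WT through PKI and MKI to HOMO. In PKI and HOMO no gene of these lists passed 2-fold, where 2.15% and 1.45% of all genes did. On lists this short an absence is close to those shares. The medians of the cell cycle genes were 0.02 and 0.00.

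In PKI, 2 genes of the pathway lists passed 2-fold, Perp and Trp63, both higher. Of all 13279 tested genes 2.15% did (0.7% higher, 1.45% lower). Perp, a desmosome gene induced by p53 and by its relative p63, was at 10.3 FPKM in PKI against 4.81 in WT, 4.82 in MKI and 5.18 in HOMO. It was the 1 gene of the 3 target lists past 2-fold in PKI. Short of 2-fold, the next highest differences from WT on those lists were those of Sfn (0.87), Rps27l (0.76), Pcna (0.50) and Siva1 (0.48). Rps27l, a ribosomal protein gene, stood at 139.2 FPKM in PKI against 81.9 in WT. Sfn, the epithelial 14-3-3 sigma gene, stood at 4.11 FPKM in PKI, 2.02 in WT, 0.629 in MKI and 2.30 in HOMO. Trp63, the p63 gene, was at 6.29 FPKM in PKI against 2.55, 3.57 and 2.56 in WT, MKI and HOMO. The epidermal list of 7 genes, Trp63 included, differed in the same direction, all 4 of its tested genes being 2-fold higher in PKI and its summed level 63.6 FPKM against 28.3 in WT, 19.5 in MKI and 26.8 in HOMO, with Krtdap at 0 in all columns. The part of epidermal cell number in the Perp and Sfn levels was not tested. Trp73, the third gene of the p53 family, lay below the filter at 0.756, 0.730, 0.103 and 0.563 FPKM from WT through PKI and MKI to HOMO.

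Marker genes of several tissues also differed between columns, in MKI against a background of 19.1% of all genes 2-fold lower. In MKI, hepatocyte genes summed to 1211 FPKM against 676 in WT, although 3 of the 10 were below WT, and 4 of 10 red cell genes were 2-fold lower. All 6 macrophage genes were below WT in MKI (sum 10.9 against 18.1 FPKM) with 1 past 2-fold, and 3 of 7 tested muscle genes were 2-fold lower. In PKI, where none of the 9 tested genes (Trp53 and its targets above) passed 2-fold, all 10 hepatocyte genes were below WT (sum 245 FPKM) and all 9 neuronal genes were below WT. The part of tissue composition in the p53 genes was not tested.

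Small RNAs from the same genotypes gave a second readout of p53 targets, because miR-34a, miR-34b, miR-34c, miR-192, miR-194 and miR-215 come from genes that p53 is known to induce. Mature sequences are shown with the seed, bases 2 to 8, in capitals, to show which of them share targets.

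mmu-miR-34a-5p: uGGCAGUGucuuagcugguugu

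mmu-miR-34b-5p: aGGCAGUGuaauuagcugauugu

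mmu-miR-449a-5p: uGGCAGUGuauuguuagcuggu

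mmu-miR-449c-5p: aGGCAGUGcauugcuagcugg

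mmu-miR-192-5p: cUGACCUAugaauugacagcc

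mmu-miR-215-5p: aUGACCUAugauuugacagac

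mmu-miR-194-5p: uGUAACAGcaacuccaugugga

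miR-34a-5p (chr4:150068473-150068494), miR-34b-5p (chr9:51103610-51103632) and the miR-449 relatives share the seed GGCAGUG, and miR-192-5p and miR-215-5p share UGACCUA. Values are RPM, reads scaled to the total of the small RNA table, from which whole reads were recovered, 8016848 to 10072670 a column. Percentages of WT carry exact 95% intervals that cover counting error only.

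None of the 6 p53-induced microRNAs was 2-fold away from WT in any knock-in column, where 2.38% (PKI), 19.8% (MKI) and 19.2% (HOMO) of 505 tested microRNAs were. After quantile normalization, which raised the median of all tested microRNAs by 0.61 in MKI and 0.49 in HOMO (log2), 4 of the 6 were 2-fold higher in MKI and 3 in HOMO. The share of all microRNAs past 2-fold after that step was not computed, so the 2 counts have no background to be read against. miR-34c-5p stood at 319, 388, 389 and 507 RPM from WT through PKI and MKI to HOMO, so that HOMO was the highest column, at 159% of WT (151.5 to 167.1%). miR-34b-5p, from the same cluster, stood at 16.8, 24.0, 26.4 and 30.7 RPM in the same order, and 183% of WT (148 to 227%) in HOMO. miR-34a-5p stood at 18.6, 17.8, 24.9 and 20.3 RPM, and MKI held 134% of WT (109 to 166%). In MKI, where Cdkn1a, Bax and Phlda3 were low, 5 of these 6 microRNAs were above WT and miR-215-5p was below. The same 5 were above WT and miR-215-5p was below in HOMO, where those genes were not 2-fold from WT. The median log2 difference of all tested microRNAs was -0.08 in MKI and 0.07 in HOMO. The share of them above WT was not computed.

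miR-192-5p stood at 1457, 1224, 1862 and 2462 RPM from WT through PKI and MKI to HOMO. miR-194-5p, encoded beside miR-192 and beside miR-215, stood at 182.7, 204.4, 214.5 and 246.6 RPM. miR-215-5p, with 61 to 133 reads a column, stood at 12.4, 13.2, 7.06 and 8.36 RPM, and MKI held 57.1% of WT (40.9 to 79.0%). The seed relative miR-449c-5p, made in ciliated cells, was at 212% of WT in MKI (176 to 257%) and at 129% in HOMO (105 to 160%), while miR-449a-5p was at 113% (99.6 to 127%) and 128% (113 to 144%). miR-125b-5p, which has been reported to target p53 mRNA, stood at 5596, 5429, 5076 and 5628 RPM, and MKI held 90.7% of WT (89.5 to 91.9%). miR-125a-5p stood at 8110, 9552, 9694 and 7841 RPM. A relation of either to the Trp53 level was not tested.

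**Figure D5:**
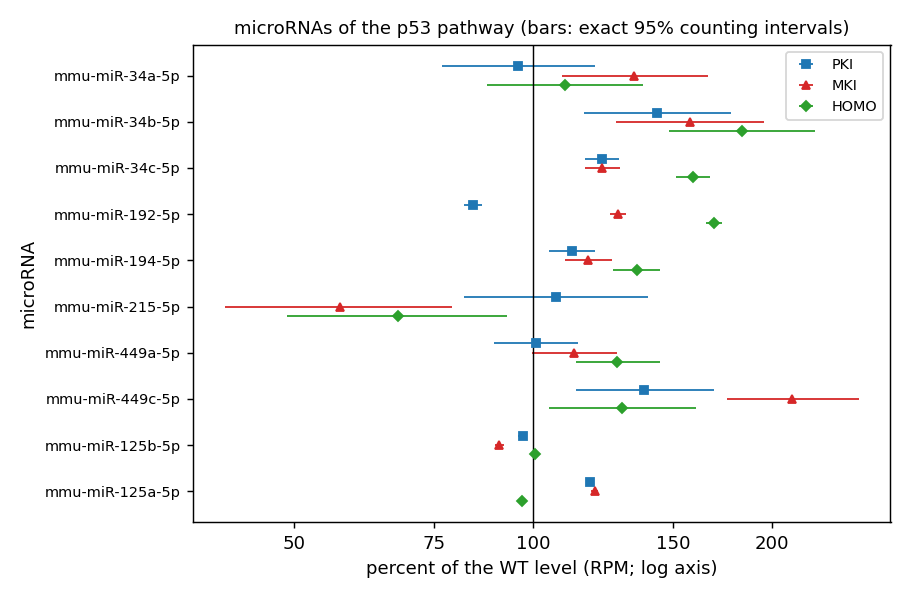
Level of each microRNA in PKI, MKI and HOMO as a percentage of WT (RPM, log axis), with exact 95% intervals for counting error. miR-34b-5p and miR-34c-5p lie above 100% in all 3 columns and miR-215-5p below it in MKI and HOMO.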

How the data were processed

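Per the labels' protocols, poly(A) RNA was selected with oligo(dT) beads and libraries were dUTP-marked and read as paired ends. The submitters' processing notes name the tools cutadapt 1.9, HISAT2 2.0.4, StringTie 1.3.4d, DESeq2 and edgeR, and the build GRCm38, with no role for any. The headers name no unit; deposited mRNA values were read as FPKM, which StringTie gives. The deposited microRNA values are RPM made by the authors; all values were whole reads to within 0.02 of a read. The small RNA library method was not given in the sources used here.

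Of 22036 Ensembl identifiers 22022 had a symbol, and values sharing a symbol were summed. The comparison rule, pseudocount (0.5) and filter (1 FPKM, or 10 RPM for microRNAs, in at least 2 columns) are those given with the results. The fixed design held limma in reserve for replicate columns; with 1 column per genotype it could not be fitted. Python 3.11.15, pandas 2.3.3 and scipy 1.17.1 were used, and steps were tested on simulated data. The 10 genes and all lists were chosen with earlier results of these data known. Named pathway genes are up to 4 per list with the largest difference from WT (2-fold or more, else the 2 largest). The 5 genes nearest to Phlda3 and listed microRNAs with 100 or more WT reads are also named. Mdm4, Cdkn2a, Trp73, Krtdap, Rps27l, Pcna, Bid, Pmaip1, Bcl2, Bcl2l1, Bcl2l2, Bcl2l11, Mcl1, Birc5, Top2a, Bub1, Mki67, Cdc20, Foxm1 and Mcm2 were added after their values were seen. Alternatives were pseudocounts of 0.1 and 1, no filter, 5 FPKM, quantile normalization, median centring and, added after seeing the data, subtraction of the gene span decile median.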

Additional observations from a re-analysis of the deposited data

Results flagged for a closer look

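For 3 of the 9 tested genes the maternally inherited insertion went with opposite signs in the 2 paternal backgrounds, at least 1 of them past 2-fold. The same pattern was met by 13.5% of all 13279 tested genes. Trp53 differed by -1.62 (log2) in MKI minus WT and by 0.12 in HOMO minus PKI. Cdkn1a differed by -1.41 and 0.41, and Sesn2 by -1.16 and 0.37. Each value rests on single columns and the difference between the pairs was not tested. In MKI minus WT, Sesn2 fell short of 2-fold after quantile normalization (-0.63), with a pseudocount of 1 (-0.89) and after span subtraction (-0.82), and Cdkn1a after span subtraction (-0.97).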

How the results depend on the processing

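Of 312 recomputed differences of the 9 tested genes, 298 kept their side of the 2-fold threshold, 12 no longer passed it and 2 came to pass it, both of Ccng1 after span subtraction; none changed sign among those past 2-fold. The count of genes 2-fold lower in MKI than WT was 6 with a pseudocount of 0.1, without a filter and after median centring, 5 with a pseudocount of 1 or quantile normalization, and 4 at 5 FPKM, where 7 genes were tested. For MKI against PKI, 6 lower genes became 5 with a pseudocount of 1 and 4 at 5 FPKM or after quantile normalization; for HOMO against MKI, Bbc3 fell short with a pseudocount of 1 (0.99). Under quantile normalization 4 p53-induced microRNAs were 2-fold from WT in MKI and 3 in HOMO, against 0 as deposited. The share of all microRNAs past 2-fold under it was not computed, and the cause was not tested. Quantile normalization moved the median of all mRNA genes in MKI minus WT by 0.25, and the share of 2-fold genes that were higher from 6.01% to 30.7% in MKI, 32.5% to 49.6% in PKI, 46.1% to 56.5% in HOMO against WT, 13.4% to 33.8% in MKI against PKI and 84.4% to 61.4% in HOMO against MKI. No paired analysis was possible because the columns carry no replicate number. Depth behind FPKM is unknown.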
